A study of Homo sapiens with 24 samples.

Results

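mRNA decay in control cells was followed as the loss of labelled RNA over a 12 h chase. The cells were HEK293T, a human embryonic kidney line, that carried non-targeting CRISPR guides (sgNT1 or sgNT2 in lentiCRISPR_v2) and had been selected in puromycin. RNA made over 24 h was labelled with 75 µM 4-thiouridine (4-SU), and the medium was exchanged every 3 h. Fresh medium with an excess of 10 mM UTP then began the chase. Cells were sampled after 0, 1, 2, 4, 8 and 12 h, with 2 libraries at each time. After treatment with iodoacetamide a labelled uridine is sequenced as C, so the T-to-C conversion of a gene in these 3′ end libraries (SLAM-seq) is high where most of its RNA was made during labelling and falls as that RNA is lost. Genes were taken when their conversion was above 0 in both 0 h libraries, which held for 12289 of 19798 genes (62.1%). The sgNT libraries are 12 of the 24 libraries in the study, and the labels give neither the guide of a library nor whether replicates came from separate cultures. The p-values therefore rest on a spread between libraries that may be technical only.

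The lifetime of an mRNA is set largely by how fast its poly(A) tail is shortened, after which the cap is removed and the body degraded from either end. Adenylate-uridylate-rich (AU-rich) elements in the 3′ UTR, binding sites of Pumilio proteins and microRNAs, and the codons of the reading frame are known to speed or slow these steps. mRNAs of transcription factors and immediate early genes are known as short-lived, and those of ribosomal proteins and metabolic enzymes as long-lived. In growing cells a conversion share also falls because new, unlabelled RNA is added, so a half-life from these data is that of the labelled share.

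Short-lived mRNAs are described below with reference to the AU-rich nonamer TTATTTATT, here searched on the transcript strand of 1 annotated 3′ UTR per gene (GENCODE release 44, GRCh38). It contains the pentamer ATTTA, also counted, so the 2 motifs overlap. The first nonamer of 8 genes described below is shown with 10 bases on either side, because these are the mRNAs with the shortest half-lives among the genes singled out that hold it. The nonamer is in capitals.
FOS, chr14:75282060-75282088, plus strand: tgtttttaatTTATTTATTaagatggatt
PHLDA1, chr12:76029787-76029815, minus strand: tgatttatgaTTATTTATTagtttttttt
BTBD8, chr1:92184457-92184485, plus strand: taaacatagtTTATTTATTaatatatcac
PLK3, chr1:44805900-44805928, plus strand: tggaccacttTTATTTATTgtcagacact
PLK2, chr5:58454066-58454094, minus strand: aataaactttTTATTTATTacagcccaaa
SLC19A2, chr1:169465191-169465219, minus strand: attgtgacgaTTATTTATTtctgtaaaat
CENPE, chr4:103105969-103105997, minus strand: ttgaattgttTTATTTATTtgtatatttt
BAG5, chr14:103557982-103558010, minus strand: tttttattttTTATTTATTtttgagatgg
The half-lives of these mRNAs ran from 0.514 h for FOS to 2.35 h for BAG5. PHLDA1 was not called as falling over the chase, as given below. The motif alone did not mark a short half-life. RPS27L, chosen as a counterexample after its value was seen, had 3 nonamers and a half-life of 17.3 h, and its first nonamer is shown for comparison.
RPS27L, chr15:63153233-63153261, minus strand: ggggtgtgagTTATTTATTggaagctcct
Over all 12289 genes, 1208 (9.83%) held the nonamer, and a match is a description of the sequence and no sign of use.

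In replicates 1 and 2, median conversion over the genes was 36.3% and 32.5% after 0 h, 33.9% and 31.3% after 1 h, 22.2% and 22.9% after 2 h, 21.4% and 20.4% after 4 h, 9.36% and 10.8% after 8 h, and 4.89% and 4.40% after 12 h. The fall was uneven, with small steps from 0 to 1 h and from 2 to 4 h and a large one between them. Replicates correlated across genes, which are not independent replicates, with Spearman coefficients of 0.54 to 0.69. The number of genes listed at 0 rose from 0 at 0 h to 2440 and 2450 at 12 h, and 8595 genes were above 0 in all 12 libraries. The table gives no read counts, so depth is unknown, and a gene at 0 may have had no converted read or no read at all. All 7 HEK293T markers checked, VIM, KRT8 and KRT18 among them, were above 0 in both 0 h libraries, as were 4 of 16 markers of other cell types, while 8 of the 16 were at 0 in every sgNT library.

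**Figure D1:**
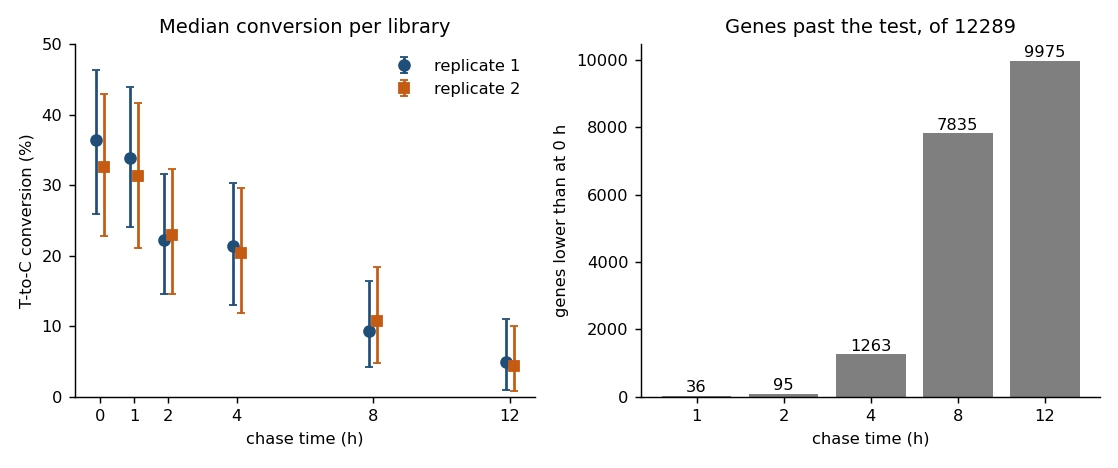
Left, median T-to-C conversion (%) over the 12289 genes in each of the 12 sgNT libraries against chase time in h, with bars from the lower to the upper quartile over genes. Right, number of genes lower than at 0 h at each time (limma, adjusted p below 0.05), rising from 36 at 1 h to 9975 at 12 h.

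Each chase time was first compared with 0 h, to ask when loss of labelled RNA could be told from the spread between libraries. Most genes passed the test only between 4 and 8 h. By limma on log2(conversion + 0.343 percentage points), a pseudocount of 1% of the median at 0 h, with p-values adjusted by Benjamini-Hochberg over all 12289 genes and a threshold of 0.05, 36 genes were lower at 1 h (0.293%), 95 at 2 h (0.773%), 1263 at 4 h (10.3%), 7835 at 8 h (63.8%) and 9975 at 12 h (81.2%). The log2 change on this scale, which understates the change of genes near 0, had medians of -0.05 (1 h), -0.48 (2 h), -0.59 (4 h), -1.65 (8 h) and -2.87 (12 h). No gene was higher at 1 h or at 2 h by limma (both 0.0%), with 32 and 47 genes higher at an unadjusted p below 0.05, and with no filter on zeros at 0 h 24 and 15 genes were higher. Among the genes above 0 in both 0 h libraries, a choice that leaves out genes rising from 0, 1 gene was higher at 4 h (0.00814%), 5 at 8 h (0.0407%) and 6 at 12 h (0.0488%). With each library centred on its median, so that a change is read against the median mRNA, 79 genes were lower and 641 higher than at 0 h after 2 h, and 220 lower and 873 higher after 4 h. The counts were 1389 lower and 2976 higher after 8 h, and 2304 lower and 3664 higher after 12 h. All 36 genes called at 1 h, and 63 of the 95 at 2 h, were listed at 0 in both libraries of that time, whereas 0 of the 36 and 30 of the 95 were above 0 in all 12 libraries. Of the genes called at 4, 8 and 12 h, 193, 608 and 1378 were listed at 0 in both libraries of that time. Those above 0 in all 12 libraries numbered 982, 6180 and 7428. A limma fit to the 8595 genes above 0 throughout called 0 genes lower at 1 h or at 2 h, with 47 and 2172 lower at an unadjusted p below 0.05. The early counts also moved with single libraries. At 1 h the count was 76 without replicate 1 of that time and 62 and 61 without replicates 1 and 2 of 2 h. At 2 h it was 58 and 63 without replicates 1 and 2 of 0 h and 174 and 195 without those of 12 h. At 4 h it was 136 and 216 without replicates 1 and 2 of 0 h, 705 and 693 without those of 1 h, 824 without replicate 2 of 2 h, 756 and 362 without those of 4 h, and 2133 and 2109 without those of 12 h.

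Genes were then ordered by the first time from which they stayed lower than at 0 h at every later time. Of the 12289 genes, 31 were lower from 1 h on, 47 from 2 h, 1143 from 4 h (9.30%), 6395 from 8 h (52.0%) and 2359 only from 12 h (19.2%), and 2314 (18.8%) were not lower at 12 h. A gene counted from 12 h can also have passed at an earlier time, as WDR83 did at 4 h. The median half-life of the genes with one was 3.77 h in those lower from 4 h on, 5.08 h from 8 h, 8.17 h only from 12 h and 23.7 h in those not lower at 12 h. The 31 genes lower from 1 h on had a median conversion of 67.5% at 0 h and none of them was above 0 in all 12 libraries, against 952 of the 1143 genes lower from 4 h on.

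Over the whole chase 10334 genes fell (84.1%) and 6 rose (0.0488%) by the slope of log2 conversion on time. The median slope was -0.24 log2 per h. To place each mRNA against the rest, every library was centred on its median and the slope tested again: 2932 genes fell faster than the median mRNA (23.9%) and 4014 slower (32.7%), while 5343 were called neither way. Of these calls, 2929 of the faster and all 4014 of the slower genes had the same sign in each replicate alone. Centring on the mean of each library in place of its median gave 2250 faster and 4578 slower genes, and replicate 2 alone gave 1718 faster genes. In what follows, faster and slower refer to this test.

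Half-lives came from a single exponential fitted to conversion relative to the mean at 0 h, within bounds of 0.1 h and 24 h. Of the fits, 9302 had a residual standard error of at most 0.3 and were kept, and 2987 were not. The median half-life was 5.44 h ± 0.558 (SD of the medians of 2 replicates, 4.89 h and 5.68 h), with quartiles at 3.59 h and 9.09 h. These replicate medians are over the fits kept for replicate 1 alone (9949 genes) and replicate 2 alone (9236 genes). Over the 9302 genes the medians of replicates 1 and 2 were 5.13 h and 6.03 h. Across genes the half-lives of the replicates correlated with a Spearman coefficient of 0.79. For 8179 genes with half-lives of at least 1 h that stayed under the limit in both replicates, the replicates differed by a median of 1.30-fold and, for 1 gene in 10, by more than 2.28-fold. These are differences between fits of 1 replicate each, and the order of genes less than this apart can change between replicates. At the long end 596 genes (6.41%) sat at 24 h, and for 152 genes the 95% interval of the slope excluded a half-life as short as that. At the short end 167 genes had half-lives under 1 h, the time of the first sample, and each of them was listed at 0 in at least 1 library. Their half-lives show only that the listed conversion was low or at 0 soon after labelling ended. Such a 0 may also be a lack of reads.

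The 10 mRNAs that fell fastest relative to their spread encoded proteins of varied function. Ranking against the spread favours close replicates, so these were not the 10 shortest half-lives. WEE1 (ENSG00000166483.12, chromosome 11, 9573670 to 9593457), the kinase that holds CDK1 inactive before mitosis, read 47.7% and 45.5% after 0 h, 46.7% and 41.5% after 1 h, 29.6% and 31.2% after 2 h, 18.7% and 16.4% after 4 h, 3.40% and 4.62% after 8 h and 0.732% and 0.722% after 12 h. Its replicates lay close together at each time and did not overlap between 1, 2, 4, 8 and 12 h. The half-life was 2.99 h and the slope against the median mRNA -0.24 ± 0.02 log2 per h (SE), adjusted p = 1.5e-07 (limma). FEN1 (ENSG00000168496.4, chromosome 11, 61792911 to 61797238), the flap endonuclease that trims Okazaki fragments, read 53.8% and 51.7% after 0 h, 48.6% and 52.9% after 1 h, 30.6% and 37.1% after 2 h, 16.1% and 18.2% after 4 h, 2.61% and 2.71% after 8 h and 0.709% and 0.476% after 12 h. Its 0 h and 1 h values overlapped, and its half-life was 2.79 h. SLC19A2 (ENSG00000117479.15, chromosome 1, 169463909 to 169485944), a thiamine transporter, read 59% and 58.2% after 0 h, 52.3% and 66% after 1 h, 16.1% and 33.3% after 2 h, 9.35% and 11% after 4 h, 2.01% and 3.19% after 8 h and 0% and 0% after 12 h. It had almost no labelled RNA left by 8 h and none listed at 12 h, with a half-life of 2.08 h. The other 7 of the 10 were SHOC2, a scaffold of the RAS-MAPK pathway (3.61 h), the kinase PIM3 (2.65 h), the zinc finger gene ZNF22 (2.75 h) and UIMC1, a ubiquitin-binding subunit of the BRCA1-A complex (3.01 h), together with the cullin 3 adaptors KLHL15 (2.68 h) and KLHL9 (2.41 h), and TAF7, a subunit of the general transcription factor TFIID (3.12 h). All 10 started above the library medians, at 45.5% to 67.4% in the 0 h libraries, and 9 of them had an ATTTA pentamer in the 3′ UTR, FEN1 being the exception. A pentamer was present in 78.1% of all genes with a half-life. FEN1 overlaps FADS2 and TAF7 overlaps SLC25A2 on the same strand, so reads of these pairs may have been shared.

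The 10 mRNAs that fell most slowly relative to their spread were as varied in function, and not all were at the limit of 24 h. MARCKSL1 (ENSG00000175130.7, chromosome 1, 32333839 to 32336233), an actin-binding protein, read 44.9% and 43.8% after 0 h, 46.5% and 43.8% after 1 h, 38% and 38.8% after 2 h, 45.3% and 46.4% after 4 h, 38.3% and 44.1% after 8 h and 40% and 33.6% after 12 h. Its 12 h values were below its 0 h values, while its 4 h values were not. The half-life was at the limit of 24 h, and the slope against the median mRNA was 0.21 ± 0.01 log2 per h (SE), adjusted p = 3.7e-10 (limma). NDUFA7 (ENSG00000267855.6, chromosome 19, 8308768 to 8321375), a subunit of respiratory complex I, read 28.4% and 25.7% after 0 h, 28.8% and 26.1% after 1 h, 23% and 25.5% after 2 h, 26.9% and 27.3% after 4 h, 27.1% and 28.4% after 8 h and 29.4% and 28.4% after 12 h. The 12 h values were not below those of 0 h, and the uncentred slope of 0.01 log2 per h did not pass the test. FABP5, a fatty acid carrier, kept 75.5% of its 0 h conversion at 12 h. DAD1, a subunit of the oligosaccharyltransferase, kept 78.3%, and the nuclear RNA-binding protein HNRNPC 73.4%. All of these had half-lives at 24 h. RSU1, a partner of the integrin-linked kinase complex, had a half-life of 20.9 h and RANBP1, a cofactor of the Ran GTPase, one of 18.5 h. PRMT1, the main asymmetric arginine methyltransferase, had 18.4 h and the proteasome subunit PSMA2 13.7 h. The last of the 10, ENSG00000256646 (15.8 h), overlaps PSMA2 on the same strand, and its values followed those of PSMA2 so closely that they are not independent. NDUFA7 overlaps ENSG00000167774 on the same strand and RPS28 on the other. Each of these 20 slopes against the median mRNA kept its sign and stayed past the threshold in each alternative run. The 20 were chosen by the t of this slope and its sign in each replicate, so this stability is no independent support.

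**Figure D2:**
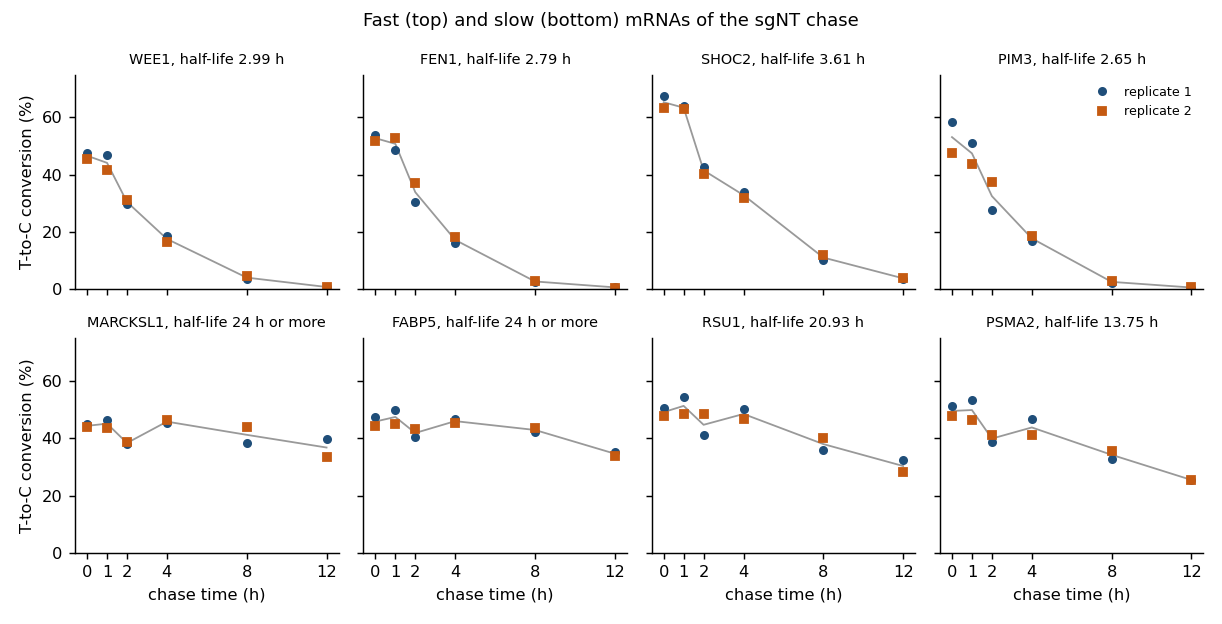
T-to-C conversion (%) against chase time (h) in each library for 4 of the fastest mRNAs (top) and 4 of the slowest (bottom), with circles for replicate 1, squares for replicate 2 and a line through their mean. The fast mRNAs fall from 45.5% to 67.4% at 0 h to under 4% at 12 h, and the slow ones stay above 25% throughout.

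Groups of functionally related mRNAs were described by the median half-life of their members and the number called faster or slower, beside 5.44 h, 23.9% and 32.7% over all genes. AU-rich and immediate early mRNAs had the shortest median of the 25 groups, 1.92 h over 42 half-lives. Immediate early genes are those induced within minutes of a stimulus. Of 47 members of the group 31 were faster (66.0%) and none slower. Only 17 of the 47 were above 0 in all 12 libraries, against 8595 of all 12289 genes. The nonamer was present in 13 of the 47 (27.7%, against 9.83% of all genes). Members were listed as AU-rich or immediate early mRNAs, so neither this share nor the short median is an independent result. At the short end DUSP2, a MAP kinase phosphatase, read 100% and 60% after 0 h and was listed at 0 in all 10 later libraries. Since a 0 can also be a lack of reads, its half-life is not known. FOS (ENSG00000170345.10, chromosome 14, 75278826 to 75282230), a subunit of the AP-1 transcription factor, read 35.7% and 50% after 0 h, 16.7% and 0% after 1 h and 12.5% and 4.05% after 2 h and was at 0 in all later libraries. Its half-life of 0.514 h was 1.04 h in replicate 1 alone and at the bound of 0.1 h in replicate 2 alone, also without replicate 1 of 1 h, and 0.78 h without replicate 2 of 1 h. Neither DUSP2 nor FOS passed the test against the median mRNA. At the long end of this group were CCND1, cyclin D1 (5.08 h), and ID1, an inhibitor of basic helix-loop-helix factors (4.45 h), both below the median of all genes.

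Other regulators of transcription and signalling were short-lived as groups as well. Feedback regulators of signalling pathways had a median of 2.62 h (33 half-lives, 24 faster and 2 slower of 47), which was 3.93 h over the members above 0 in all 12 libraries. NOG, an extracellular antagonist of BMPs (0.916 h, with 1.49 h and 0.27 h in replicates 1 and 2), and PHLDA1, a pleckstrin homology-like protein (0.960 h, with 0.53 h and 1.99 h), were shortest and were listed at 0 in several libraries. PHLDA1 read 28% and 0% after 12 h and was not called lower at 4, 8 or 12 h. Its slope over the chase did not pass the test (adjusted p = 0.14, limma), so its short half-life is not secure. The inhibitor of NF-kappa-B NFKBIB (9.84 h) and the nuclear receptor NR1D2 (5.79 h) were longest. ZNF genes, the large family of zinc finger repressors, had a median of 3.00 h over 316 half-lives, and 229 of 423 were faster (54.1%) against 27 slower (6.38%). Of the 423, 181 were above 0 in all 12 libraries. ZNF208 and ZNF575 were above 0 only at 0 h. ZNF90 stood at the other end: it read 12.9% and 12.9% after 0 h and 12.5% and 12.6% after 12 h, with a half-life at 24 h, and was the only 1 of the 316 at the limit. Homeobox, SOX and FOX factors, which set cell identity, had a median of 3.40 h (86 half-lives), with 65 of 117 members faster and 4 slower. Their list also held T-box factors, which are in these counts. Of the 117, 53 were above 0 in all 12 libraries. FOXM1, which drives the mitotic programme, was the longest-lived at 15.8 h (11.9 h and 23.5 h in replicates 1 and 2, 24 h without replicate 1 of 0 h). It was followed by the T-box factor TBX19 at 12.5 h (17.5 h and 9.27 h). TBX15 and FOXI3 had half-lives under 1 h with zeros in several libraries. TBX15 read 35.5% and 0% after 8 h and 28.6% and 0% after 12 h, and was not called lower at 4, 8 or 12 h.

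Targets of p53, the DNA damage response factor, ranged widely. Their median was 3.63 h over 27 half-lives, with 20 of 32 members faster and 5 slower, and 10 of the 32 held the nonamer (31.3%). PLK2 (ENSG00000145632.15, chromosome 5, 58453982 to 58460139), a polo-like kinase, read 41.1% and 57.7% after 0 h, 26.1% and 38.9% after 1 h, 11.7% and 19.3% after 2 h, 10.4% and 5.88% after 4 h, 0.606% and 0% after 8 h and 0.704% and 0% after 12 h. Its values fell at each step up to 8 h in both replicates, its half-life was 1.40 h, and its slope against the median mRNA was -0.35 ± 0.07 log2 per h (SE), adjusted p = 0.00099 (limma). PLK3, another polo-like kinase, had a half-life of 1.21 h but was listed at 0 in both 2 h libraries and from 8 h on. In contrast BAX, the apoptotic pore protein, kept 56.0% of its 0 h conversion at 12 h (half-life 18.9 h, slope 0.18 ± 0.02 log2 per h (SE), adjusted p = 1.1e-06 by limma). RPS27L, a ribosomal protein paralogue whose nonamer is shown above, kept 45% (half-life 17.3 h).

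Mediator, Integrator and RNA polymerase subunits had a median of 4.76 h over 72 half-lives, with 26 of 80 members faster and 24 slower. Genes whose symbols start with MED had 4.38 h over 27 half-lives and those with INTS 3.71 h over 13, whereas those with POLR had 6.98 h over 31, with 18 of 33 slower and 6 faster. The shortest were INTS9 (1.62 h) and MED17 (1.72 h), and the longest the RNA polymerase II subunits POLR2G and POLR2E, both at 24 h. Chromatin methylases and demethylases had a median of 4.23 h (53 half-lives, 25 faster and 12 slower of 68). F-box and BTB ubiquitin ligase adaptors had 4.39 h (80 half-lives, 40 faster and 19 slower of 101), and cyclins coupled to RNA polymerase II together with cyclin D 4.25 h (11 half-lives, 5 faster and 4 slower of 13). Among the adaptors BTBD8 (1.18 h) and KLHL25 (1.30 h) were shortest and FBXW4 (24 h) and BTBD2 (22.3 h) longest.

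Cytosolic ribosomal protein mRNAs formed the other end of the order. Of 84 members, 83 were slower than the median mRNA (98.8%) and none faster. Of the 84 half-lives 59 were at 24 h, and the median share left at 12 h was 80.9%, against 16.1% over all genes with a half-life. With the limit moved to 48 h the median half-life of the group was 36.7 h. Their conversion at 0 h was low, with a median of 14.3% against 34.9% over all genes. RPS27 (ENSG00000177954.14, chromosome 1, 153990762 to 153992155) read 17.8% and 18.7% after 0 h, 19.3% and 20.1% after 1 h, 23% and 21.5% after 2 h, 20.5% and 21% after 4 h, 20.5% and 20.4% after 8 h and 19.8% and 20.2% after 12 h. No later library was below either 0 h library. Ribosomal protein genes have near-identical processed copies in the genome, so their values are uncertain where the authors' counting could split reads, and the part of this in the flat curves was not tested. RPL7L1, a paralogue of RPL7 that is not part of the mature ribosome, was the exception: it had a half-life of 5.41 h, 31.8% and 32.3% after 0 h and 3.91% and 4.08% after 12 h, and was called neither faster nor slower.

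mRNAs of glycolysis, the respiratory chain, the proteasome and the translation machinery had long fitted half-lives too. Their median conversion at 0 h was 22.9% for glycolysis and 23.7% for the respiratory chain, against 34.9% over all genes. It was 36.6% for the proteasome and 35.1% for translation factors. Conversion that does not decay would also read as a long half-life, and its part here was not tested. Nuclear mRNAs of the respiratory chain had a median at 24 h (79 half-lives), with 80 of 83 members slower (96.4%) and none faster. The shortest were UQCRFS1, the Rieske protein of complex III (6.25 h), and NDUFS1 of complex I (6.84 h). Glycolysis enzymes had a median of 23.6 h over 16 half-lives, with 16 of 19 members slower. ENO1 (ENSG00000074800.16, chromosome 1, 8861000 to 8879190), enolase, read 23.4% and 22.5% after 0 h, 24.8% and 24.1% after 1 h, 23.2% and 23.5% after 2 h, 24.1% and 23.9% after 4 h, 22.4% and 24% after 8 h and 24.7% and 24.3% after 12 h. All 12 values lay between 22.4% and 24.8%, with no order by time. HK2 (ENSG00000159399.10, chromosome 2, 74834127 to 74893359), the inducible hexokinase, was the 1 glycolysis mRNA called faster, and read 50.6% and 31.8% after 0 h, 37.8% and 31.1% after 1 h, 7.47% and 23.2% after 2 h, 12.4% and 23.2% after 4 h, 4.94% and 15.8% after 8 h and 1.23% and 1.03% after 12 h. Its replicates were far apart, and its half-life of 2.70 h was 1.37 h in replicate 1 and 5.84 h in replicate 2 (slope -0.12 ± 0.05 log2 per h (SE), adjusted p = 0.038 by limma). Proteasome subunits had a median of 11.8 h (34 half-lives, 31 of 34 slower), the exception on the fast side being the base ATPase PSMC6 (3.51 h). Tubulins and actins had 9.71 h (25 half-lives, 15 slower and 3 faster of 26), and translation factors 9.57 h (52 half-lives, 41 slower and 6 faster of 57). The tRNA synthetases had 9.51 h (23 half-lives, 16 slower and 1 faster of 23), and spliceosome and SR proteins 7.86 h (74 half-lives, 55 slower and 10 faster of 76). Lysosomal proteins had 8.78 h (34 half-lives), with 28 of 41 slower and none faster.

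**Figure D3:**
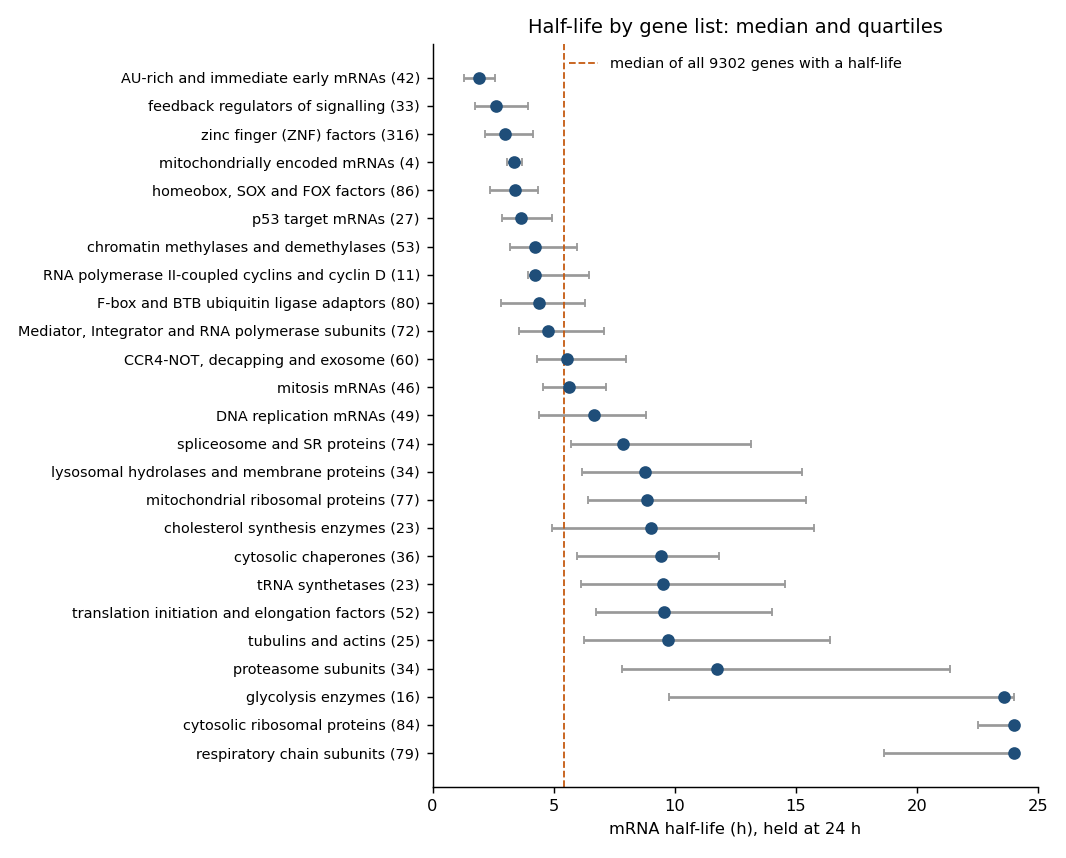
Median half-life (h, held at 24 h) of the genes in each of 25 lists, with bars from the lower to the upper quartile over members and the number of half-lives in parentheses. The dashed line is the median of all 9302 genes, 5.44 h, and the lists run from 1.92 h for AU-rich and immediate early mRNAs to 24 h for respiratory chain and cytosolic ribosomal protein mRNAs.

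Some pathways held both short- and long-lived mRNAs. Cholesterol synthesis enzymes had a median of 9.03 h over 23 half-lives, with 15 of 28 members slower and 6 faster. MSMO1 (ENSG00000052802.13, chromosome 4, 165327667 to 165343164), the methylsterol monooxygenase, read 53.7% and 57.4% after 0 h, 42.9% and 57.8% after 1 h, 32.5% and 45.8% after 2 h, 25% and 31.1% after 4 h, 6.6% and 7.50% after 8 h and 4.55% and 1.84% after 12 h. Its half-life was 3.57 h and its slope against the median mRNA -0.13 ± 0.02 log2 per h (SE), adjusted p = 0.00041 (limma). FDPS (ENSG00000160752.15, chromosome 1, 155308748 to 155320666), the farnesyl diphosphate synthase, read 12.6% and 13% after 0 h, 11% and 13.9% after 1 h, 8.65% and 11.8% after 2 h, 12.7% and 11.7% after 4 h, 11.9% and 15.5% after 8 h and 8.2% and 15.1% after 12 h. Its half-life was at 24 h and its slope 0.23 ± 0.02 log2 per h (SE), adjusted p = 3e-06 (limma). MSMO1 started above FDPS in both replicates and was below it at 8 h and 12 h. SCD, a fatty acid desaturase kept in the same list, was also at 24 h. Cytosolic chaperones had a median of 9.45 h (36 half-lives, 25 slower and 4 faster of 36), with the HSP70 co-chaperones BAG5 (2.35 h) and BAG3 (2.38 h, with 1.73 h and 3.43 h in replicates 1 and 2) shortest and the prefoldin subunits PFDN6 and PFDN5 at 24 h. PFDN6 was at 12.1 h in replicate 2 alone.

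DNA replication and mitosis mRNAs had medians of 6.65 h (49 half-lives, 28 slower and 11 faster of 52) and 5.63 h (46 half-lives, 14 slower and 15 faster of 50). E2F2 (1.96 h) and the initiation factor MCM10 (2.23 h) were the shortest of the first group. RPA3, the small subunit of the single-strand binding complex (24 h), and the polymerase epsilon subunit POLE2 (17 h, 11.2 h in replicate 2 alone) were the longest. In the second, the kinetochore motor CENPE (2.33 h) and WEE1 stood against SPC24 of the NDC80 complex (18.8 h) and PTTG1, securin (16.7 h). mRNAs of the decay machinery itself, with CCR4-NOT, the decapping enzymes, the exosome and also nonsense-mediated decay in the list, had a median of 5.56 h over 60 half-lives, with 25 of 61 members slower and 9 faster. This median fell below that of all genes under 7 of 21 alternatives and that of the mitosis mRNAs under 4. TOB2, which brings CCR4-NOT to mRNAs (2.01 h), and SMG8 of the nonsense-mediated decay pathway (2.06 h) were shortest, and the LSM ring subunits LSM4 and LSM5 were at 24 h.

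mRNAs of mitochondrial proteins are encoded in both genomes of the cell. The 4 mRNAs encoded in the mitochondrion above 0 at both 0 h libraries had half-lives of 2.81 h (MT-CO2), 3.16 h (MT-ND4L), 3.56 h (MT-ATP8) and 4.03 h (MT-ATP6), all below the median of all genes. Only MT-ND4L passed the test against the median mRNA, with a slope of -0.13 ± 0.03 log2 per h (SE), adjusted p = 0.0061 (limma). MT-CO2 (ENSG00000198712.1, chromosome M, 7586 to 8269), a subunit of cytochrome c oxidase, read 17.5% and 16.2% after 0 h, 15% and 15.3% after 1 h, 9.67% and 9.85% after 2 h, 5.32% and 5.74% after 4 h, 2.40% and 2.27% after 8 h and 0.954% and 1.34% after 12 h. It started at a level below the library medians and fell at every step in both replicates. MT-ATP6 and MT-ATP8 overlap on the same strand. Nuclear-encoded mitochondrial ribosomal proteins had a median of 8.87 h over 77 half-lives, with 54 of 78 members slower and 8 faster, and a median of 35.5% at 0 h. MRPL44 (3.92 h) and MRPL34 (4.49 h) were the shortest and MRPS15 and MRPL52, both at 24 h, the longest of them.

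The order of half-lives was then set against features of the transcripts that the fit did not use. The 9302 genes were divided into quintiles by half-life, with median half-lives of 2.34, 3.94, 5.44, 8.00 and 16.8 h. Median coding length fell from 1839 bases in the shortest-lived quintile to 1682, 1400, 1155 and 798 bases. The median 3′ UTR was 1802, 1884, 1723, 1386 and 716 bases long. The share of genes with a nonamer was 15.5%, 12.2%, 12.2%, 7.74% and 4.78%. The share with at least 1 ATTTA pentamer was 85.5% in the first quintile and 58.7% in the last. Since long 3′ UTRs hold more motifs by length alone, the number per kb of 3′ UTR is also given: nonamers fell from 0.0834 to 0.0548 and pentamers from 2.59 to 1.88. The Pumilio site TGTANATA was present in 42.7% of the first and 14.2% of the last quintile, or 0.315 and 0.141 per kb. Among 3′ UTRs shorter than the median of 1480 bases, genes with a nonamer had a median half-life of 4.65 h (185 genes) and genes without 6.49 h (4466 genes). In the longer ones it was 4.44 h (790 genes) and 4.96 h (3861 genes). Across genes, the Spearman coefficient with half-life was -0.41 for coding length, -0.31 for 5′ UTR length, -0.24 for 3′ UTR length and 0.12 for the G and C content of the last position of codons. The last was 0.23 over the 7817 of these genes above 0 in all 12 libraries, and its median by quintile had no steady order, at 54.5%, 49.8%, 50.3%, 54.1% and 62.0%. Genes share libraries and are not independent replicates, so no test is attached to these values.

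Conversion at 0 h moved with half-life as well. Its median was 44.1% in the shortest-lived quintile and 27.1% in the longest-lived, and the Spearman coefficient with half-life was -0.43 over 9302 genes. The 0 h values enter the fitted half-life, but the coefficient was -0.35 between 0 h conversion of replicate 1 and half-life of replicate 2 and -0.29 the other way round. Mitochondrially encoded mRNAs went against this order, with a median of 14.8% at 0 h and short half-lives. An abundant mRNA could stay at a constant low level: GAPDH, the glycolytic dehydrogenase, read 5% and 5.10% after 0 h, 5.78% and 5.71% after 4 h and 5.70% and 5.41% after 12 h. A T-to-C difference between these cells and the reference would read as conversion that does not decay, and its part in such a flat curve was not tested.

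**Figure D4:**
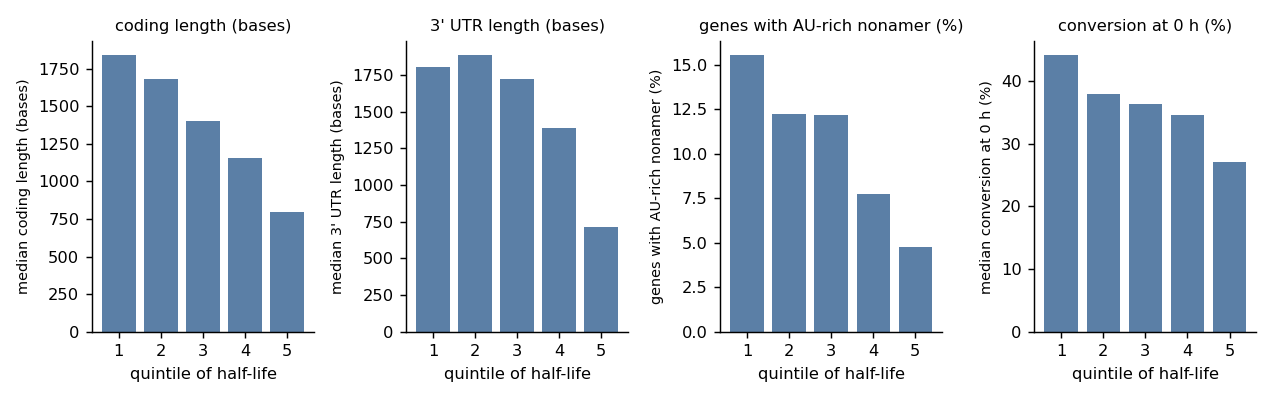
Median coding length and 3′ UTR length (bases), share of genes with the AU-rich nonamer (%) and median conversion at 0 h (%) for quintiles of 1860 or 1861 genes by half-life, from the shortest (1) to the longest (5). Coding length falls from 1839 to 798 bases and conversion at 0 h from 44.1% to 27.1%.

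The shape of each curve was examined as the slope over 0 to 4 h minus the slope over 4 to 12 h. The slopes were taken on log2 conversion with the pseudocount added, so a single exponential gives a difference of 0 only far above the pseudocount. Near the pseudocount the late slope flattens, and a fast-falling mRNA can then give a difference below 0 from the scale alone. By this test 372 genes fell more slowly early than late (3.03%) while 123 fell faster early than late (1.0%). The part of the scale in the 123 was not tested. The typical curve also bent, with a median early slope of -0.16 and a median late slope of -0.25 log2 per h. The late-falling genes had median slopes of -0.06 early and -0.29 late, kept a median of 86.2% of their 0 h conversion at 4 h (67.7% over all genes with a half-life), and were left with 15.3% at 12 h (16.1%). Of the 372, 324 were above 0 in all 12 libraries. Their number depended on the library medians and on single libraries: once each library was centred on its median 44 kept the call, although 371 of the 372 kept the sign. Which direction held more genes changed with the setting: there were 107 early-falling and 44 late-falling genes after centring, 115 and 87 with the trend option off, 157 and 64 without replicate 1 of 4 h, 130 and 77 without replicate 2 of 4 h, and 88 and 83 without replicate 2 of 0 h. Late-falling genes stayed the more numerous without the other libraries, with 131 against 88 without replicate 1 of 0 h, 204 against 139 and 173 against 145 without those of 1 h, and 245 against 168 without replicate 2 of 2 h. Without replicates 1 and 2 of 12 h they numbered 893 and 809.

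The 5 late-falling genes with the largest moderated t had tight replicates. TIMM23 (ENSG00000265354.4, chromosome 10, 45972489 to 46003742), the channel of the mitochondrial inner membrane translocase, read 54.2% and 51.8% after 0 h, 52.6% and 50.7% after 1 h, 53.2% and 53.7% after 2 h, 46.7% and 47.2% after 4 h, 24.8% and 23.8% after 8 h and 11.3% and 10.4% after 12 h. It stayed level up to 2 h and fell at each step from there, with no overlap between 2, 4, 8 and 12 h. SNX12 (ENSG00000147164.12, chromosome X, 71056332 to 71073426), a sorting nexin, read 49% and 49.2% after 0 h, 57.3% and 53.9% after 1 h, 48.7% and 51.5% after 2 h, 51% and 45% after 4 h, 26% and 25.2% after 8 h and 8.35% and 7.57% after 12 h. Its early slope of -0.02 and late slope of -0.32 log2 per h differed by 0.29 ± 0.03 (SE, adjusted p = 0.0021, limma), and it was the only 1 of the 5 that passed after centring (adjusted p = 0.015). The others were the lactate transporter SLC16A1, the ribosome-associated RNA-binding protein SERBP1 and EIF4A3, the helicase of the exon junction complex. Their adjusted p after centring by limma was 0.19, 0.31 and 0.066, and 0.069 for TIMM23. Reads of TIMM23 can be shared with a near-identical copy.

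**Figure D5:**
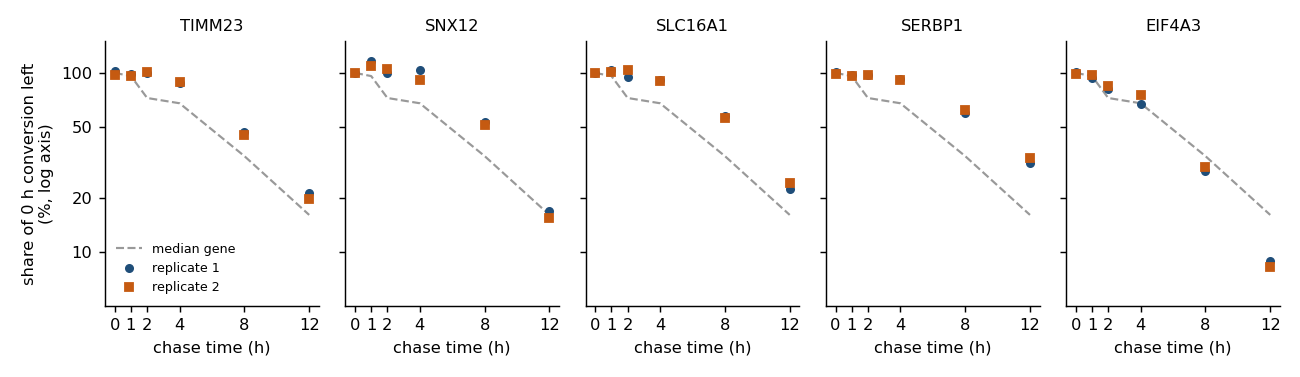
Share of the mean 0 h conversion left (%, log axis) against chase time (h) for the 5 mRNAs with the largest t of the early minus late slope, with circles for replicate 1, squares for replicate 2 and a dashed line for the median of all genes with a half-life, which falls to 67.7% at 4 h and 16.1% at 12 h. SNX12, SLC16A1, SERBP1 and TIMM23 stay above 88% up to 4 h, and EIF4A3 is nearer the line.

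Genes that fell faster early than late were mostly sparse: 113 of the 123 were listed at 0 in at least 1 library and 111 at 0 in both 4 h libraries, which fixes a steep early slope. Among the 10 above 0 in all 12 libraries, ARHGAP42 (ENSG00000165895.19, chromosome 11, 100687288 to 100993941), a GTPase-activating protein, read 58.3% and 60.6% after 0 h, 40.5% and 53.6% after 1 h, 19.4% and 14.8% after 2 h, 4.76% and 7.32% after 4 h, 13.3% and 8.93% after 8 h and 3.70% and 2.76% after 12 h. It fell at every step to 4 h in both replicates and was higher at 8 h than at 4 h in both, with slopes of -0.86 and -0.10 log2 per h. RASAL2, a GTPase-activating protein for RAS, fell to 6.85% and 5.65% after 4 h and was at 2.23% and 4.31% after 12 h. The zinc finger gene ZFP28 was at 6.25% and 7.41% after 4 h and 4.17% and 2% after 12 h. WDR83 (ENSG00000123154.12, chromosome 19, 12666802 to 12675832), a WD repeat protein, was not a decay curve: it read 26.2% and 30.2% after 0 h, 15.5% and 22.1% after 1 h, 16.3% and 16.4% after 2 h, 6.78% and 6.67% after 4 h, 22.5% and 28.6% after 8 h and 11.5% and 8.89% after 12 h. It was higher at 8 h than at 4 h in both replicates. WDR83 overlaps WDR83OS and DHPS on the opposite strand, and whether reads were counted by strand is not given in the sources used here. The fifth, CCDC191, a coiled-coil protein, went from 18.9% and 16.5% after 0 h to 3.57% and 2.25% after 4 h and 9.84% and 4.72% after 12 h. All 5 calls were lost without replicate 1 of 4 h, and those of WDR83, ZFP28, RASAL2 and CCDC191 also without replicate 2 of 4 h. Those of ZFP28, RASAL2 and CCDC191 were lost without either 0 h library as well, that of RASAL2 without replicate 2 of 1 h and that of CCDC191 without replicate 1 of 1 h.

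Of the 6 genes whose conversion rose over the chase, the 5 with the largest t are given. FKBP1C (ENSG00000198225.5, chromosome 6, 63211446 to 63213024) read 36.9% and 23.3% after 0 h, 48.8% and 37.1% after 1 h, 52.2% and 68.9% after 2 h, 80.8% and 41.4% after 4 h, 38.2% and 78.4% after 8 h and 89.3% and 89.5% after 12 h, a slope of 0.09 ± 0.03 log2 per h (SE, adjusted p = 0.01, limma). PPP1R2B, also a gene of 1 exon, was at 50% and 37.5% after 0 h and 90% and 100% after 12 h. Both are copies of a spliced gene, FKBP1A and PPP1R2, so the authors' counting could split reads between the pairs. TMEM256 (ENSG00000205544.4, chromosome 17, 7402975 to 7404097) read 15.2% and 15.6% after 0 h, 17.1% and 18.8% after 1 h, 19% and 16.2% after 2 h, 17.2% and 13.1% after 4 h, 20.7% and 21.2% after 8 h and 20.9% and 24.1% after 12 h, a rise of under 10 percentage points. PDZD11 went from 21.5% and 18.2% after 0 h to 25.2% and 25.7% after 12 h, and ESX1, a homeobox gene, from 18.2% and 3.23% after 0 h to 40% and 50% after 12 h with widely spread values between. None of these 5 calls held under each alternative. The count of rising genes was 2 without replicate 2 of 0 h, 3 without replicate 1 of 1 h, replicate 1 of 8 h or either 12 h library, and 4 without either 4 h library.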

How the data were processed

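Conversion was deposited by the authors as a fraction, 1 value per gene and library, from QuantSeq 3′ end libraries demultiplexed with bcl2fastq and set to GRCh38 per the labels. The aligner, the conversion caller, the annotation, the masking of T-to-C variants, and whether reads or T positions were counted are not given in any source used here. Values are printed as percentages. The table holds no read counts, so depth per library is unknown and no counting interval is given. Of its columns, 12 (sgNT) were used, the 12 of sgCNOT3 were not, and 0 columns had no sample.

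Tests were made with limma 3.58.1 in R 4.3.3 (trend on, two-sided) on log2(conversion + 0.343 percentage points), with 1 mean per chase time or a slope on time, Benjamini-Hochberg over 12289 genes and a threshold of 0.05. Half-lives were fitted in Python 3.11.15 with numpy 2.4.6, scipy 1.17.1 and pandas 2.3.3, and figures drawn with matplotlib 3.10.9. Both steps were tested on simulated data. Transcript features and sites came from GENCODE release 44. Genes were named by rule: the 10 most extreme moderated t of the centred slope at either end, the 2 shortest- and 2 longest-lived members of a list, 5 bends in either direction above 0 in all libraries, and 5 rising genes. Genes named by the centred slope also had to keep its sign in each replicate alone and have a half-life fit that was kept. Only a subset of the named list members is described. It was picked after values were seen, as were GAPDH and RPS27L. Some items are not reported here. Genes, lists and tests were chosen with earlier results of these data known. Alternatives were the pseudocount, the filter on zeros, the trend, centring, the time window, the form of the half-life fit, the replicate number as a term, and leaving out each library.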

Additional observations from a re-analysis of the deposited data

How the results depend on the processing

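No slope of a named gene changed sign, and the 20 slopes of the genes with the most extreme t stayed past the threshold in each alternative. Those 20 were chosen by the same test, so their stability follows in part from the choice. The balance of the bends turned, from 123 early- and 372 late-falling genes to 107 and 44 after centring, 115 and 87 with the trend off, 157 and 64 or 130 and 77 without a 4 h library, and 88 and 83 without replicate 2 of 0 h. Of the 25 lists, 22 stayed on their side of the median half-life of all genes in all 21 alternatives. The cause of the shifts below was not tested. A pseudocount of 0.2% of the 0 h median left 0 genes higher at 4 h, and 5% gave 4 higher and 2179 lower. Over genes above 0 in all 12 libraries, 0 were lower after 1 h and 0 after 2 h by limma (47 and 2172 at an unadjusted p below 0.05), 19 fell faster early than late, and the median half-life was 6.26 h. With no filter 14 genes rose, and 24, 15, 7, 19 and 16 were higher at 1, 2, 4, 8 and 12 h. With the trend off 1 gene was higher at 1 h, 2 were higher at 4 h, and 87 fell slower early than late. Over 0 to 8 h, 1 gene rose. Centring on library medians gave 641 higher (2 h), 220 lower and 873 higher (4 h), 1389 lower and 2976 higher (8 h), 2304 lower and 3664 higher (12 h), and 44 slower early than late. A log-linear fit gave a median half-life of 4.55 h. 

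Leaving out 1 replicate or library gave 8713 to 10384 falling and 2 to 8 rising genes. It gave 1718 to 2946 faster and 3282 to 4023 slower than the median mRNA, 35 to 76 lower and 0 to 1 higher at 1 h, 58 to 195 lower at 2 h. It gave 136 to 2133 lower and 0 to 4 higher at 4 h, 5642 to 8358 lower and 3 to 11 higher at 8 h, 8540 to 9998 lower and 4 to 10 higher at 12 h. It gave 88 to 172 faster and 64 to 893 slower early than late, and median half-lives of 4.89 to 5.82 h. The contrasts of group means could not be fitted with 1 replicate alone.

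The replicates of different times share only a number: over 15 pairs of times the differences between replicates correlated at -0.03 to 0.03 across genes. With the replicate number as a block, 10310 genes fell and 4 rose, 2905 were faster and 3999 slower than the median mRNA, 976 were lower and 0 higher at 4 h, and 248 fell slower early than late.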

Other observations

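Genes that share the start of their symbol were also compared, in 151 groups of at least 8 half-lives, described here with no test and chosen after their values were seen. Some of these groups share genes with the lists above. Among the short-lived ones, KLF zinc finger factors had a median half-life of 2.63 h over 11 genes (7 of 12 measured genes faster than the median mRNA, none slower), ZBTB factors 2.86 h over 30 genes (29 of 39 faster, 1 slower), and THAP genes 3.67 h over 10 genes (8 of 12 faster, none slower). HOXA genes, which pattern the body axis, had 3.88 h over 9 genes, with 10 of 11 faster. The PCDHGA protocadherins had 1.85 h over 12 genes with none called either way, and since these genes share their 3′ exons their values are not independent.

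Among long-lived groups, COPS subunits of the COP9 signalosome had a median of 12.3 h over 9 genes (8 of 9 slower), TOMM subunits of the outer mitochondrial membrane translocase 13.7 h over 9 genes (8 of 9 slower), and NDUFAF assembly factors of respiratory complex I 11.3 h over 8 genes (7 of 8 slower). Tetraspanins (TSPAN) had 15.6 h over 12 genes but were mixed, with 10 of 17 slower and 3 faster. ANAPC subunits of the anaphase-promoting complex had 10.7 h over 9 genes (7 of 9 slower).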
